A study of Homo sapiens with 36 samples.

Results

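The genes described here are those that MOLM-13 and MONO-MAC-6 cells both express without drug, and the question is in which of them the response to the degrader A9 differed between the lines. Levels are in TPM, the share of a library's transcripts that belong to a gene, corrected for transcript length. A gene was a member where its mean reached 5 TPM with DMSO in both lines. This left 7993 of 35460 genes, 7846 of them protein-coding. A further 1067 genes reached 5 TPM with DMSO only in MONO-MAC-6 and 650 only in MOLM-13, and these were not members. USP54, at 5.003 TPM in its lower line, was among the members closest inside the limit, and EME2, at 4.997 TPM, was among those closest outside it. Membership used the DMSO levels, which also enter the A9 effects, but not the A9 levels.

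MOLM-13 and MONO-MAC-6 are human acute myeloid leukaemia (AML) cell lines, both labelled wild type, and both are known to carry a fusion of KMT2A with MLLT3. MOLM-13 cells received 0.125 µM A9 and MONO-MAC-6 cells 0.25 µM A9, and each line had its own DMSO vehicle control. RNA was taken at 72 h in all 4 groups. A9 is a proteolysis-targeting chimera (PROTAC), a molecule that brings a ubiquitin ligase to a chosen protein so that the proteasome destroys it. The series' title names its targets as IKK1 and NR4A1, while the design text names IKK2 and NR4A1. Each group held 3 samples and each sample 3 libraries, 36 libraries in all, and the libraries of a sample were averaged. The labels do not say whether the 3 samples came from separate cultures, so p-values measure only the spread between these samples. Line and dose changed together, so a difference between the lines cannot be told apart from a difference between the doses.

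IKK1 (gene CHUK) and IKK2 (gene IKBKB) phosphorylate the inhibitors and precursors that hold NF-kB transcription factors in the cytoplasm, and so switch on genes of inflammation and survival. NR4A1 is an orphan nuclear receptor and an immediate early gene, which can pair with RXRA on DNA. Other programmes named below are also set by transcription factors: SREBP2 drives the cholesterol enzymes when sterols run low, ATF4 drives serine and amino acid synthesis, NRF2 drives antioxidant and NADPH-producing genes, and TFEB drives lysosomal genes. In myeloid cells, granule proteases mark the promyelocyte stage. By contrast, CD68, lysosomal cathepsins and the membrane proteins MS4A6A and MS4A7 rise with maturation towards monocytes and macrophages.

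Levels are in scaled TPM: TPM was summed over each gene's transcripts and divided by the sample's median-ratio factor, found within each line. The A9 effect is A9 minus DMSO on the log2(scaled TPM + 1) scale, which understates the change of low genes. The difference is the A9 effect in MONO-MAC-6 minus the A9 effect in MOLM-13, so a positive difference means a higher A9 effect in MONO-MAC-6. One limma model was fitted to the 13408 genes whose mean reached 1 TPM in some group, and p-values were adjusted by Benjamini-Hochberg over all 13408. A gene is called where that adjusted p was under 0.05. The tables of the lines were normalised separately, which limits any level set side by side across the lines.

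Of the myeloid markers, CD33 stood at 26.5 to 40.9 TPM, SPI1 at 157 to 344 and CEBPA at 264 to 391 across all samples. CSF1R did not exceed 1.73 TPM in either line and so was near absent in both. CD14 stood at 0.225 to 0.491 TPM in MOLM-13, where it was near absent, and at 2.66 to 13.5 TPM in MONO-MAC-6. ITGAM stood at 3.27 to 9.16 TPM in MOLM-13 and at 2.52 to 3.85 TPM in MONO-MAC-6. MPO stood at 75.7 to 127 TPM and 32.4 to 68.6 TPM, and FLT3 at 41.9 to 84.4 TPM and 524 to 911 TPM, in that order of lines. The summed level of the myeloid marker list was 737 to 1070 TPM across the MOLM-13 samples and 4280 to 9300 TPM across the MONO-MAC-6 samples, where most of it was LYZ, a gene raised by A9. Summed T cell markers did not exceed 4.35 TPM, B cell markers 11.1 TPM and erythroid markers 8.8 TPM in any sample. The epithelial and fibroblast sum reached 16.8 TPM, with KRT18 up to 11.7 TPM. CD3E, CD2, MS4A1, PF4, HBB and KRT19 were at 0 in every sample. Median-ratio factors were 0.870 to 1.114 in MOLM-13 and 0.773 to 1.079 in MONO-MAC-6, where the lowest belonged to DMSO sample 1. That sample also stood apart on the first principal component of its line, which held 76.3% of the variance. In MOLM-13 the first component held 73.5%, with DMSO sample 1 and A9 sample 3 at its ends. It did not set the treatments apart: DMSO stood at 21.2, 6.69 and −8.34 and A9 at −0.096, 7.06 and −26.5. The treatments stood apart on the second component of that line, which held 14.4%. The files hold TPM and no counts, so the depth behind each value is unknown.

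The A9 effect differed between the lines in 197 of the 7993 members, against 520 calls among all 13408 genes fitted (3.88%). In 87 members the difference was higher in MONO-MAC-6 (background 2.12%) and in 110 it was lower (background 1.76%). The called members are 2.46% of all members, fewer than the background share. Before adjustment, 1295 members had p under 0.05. Sizes ran from 0.38 upwards, with medians of 0.76 for the higher and −0.70 for the lower genes, and 30 of the higher and 24 of the lower differed by at least 1 log2 unit.

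**Figure D1:**
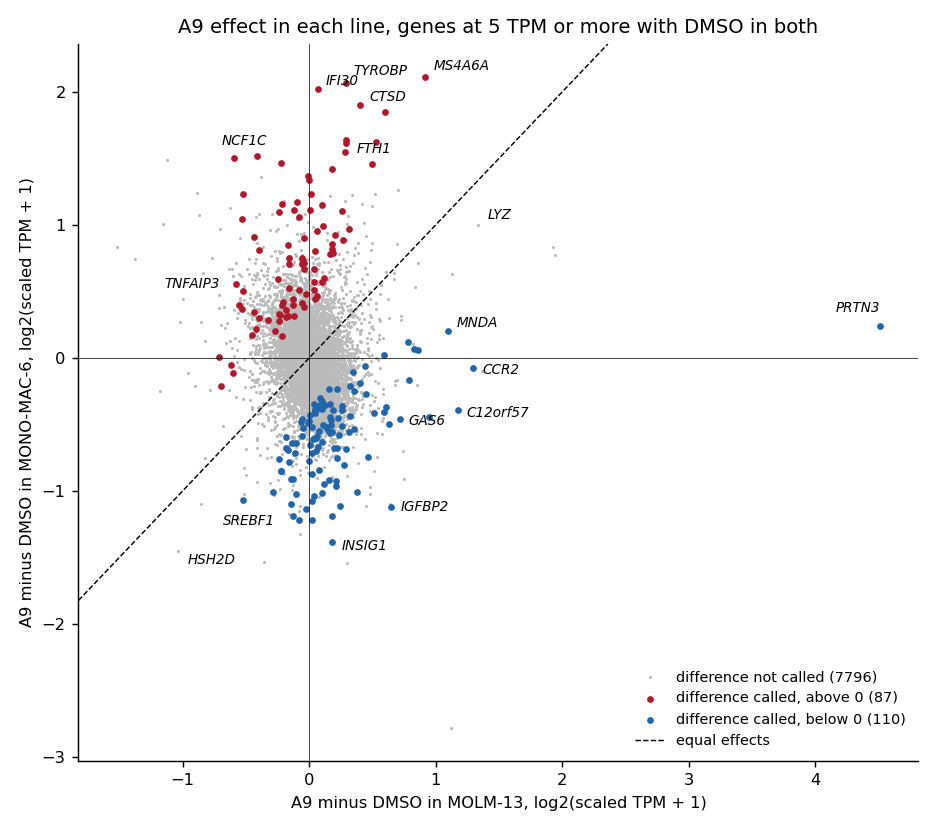
A9 effect of each of the 7993 members in MOLM-13 (horizontal axis) and MONO-MAC-6 (vertical axis), both on the log2(scaled TPM + 1) scale, with the 197 members whose difference was called in colour. Most coloured points lie far from 0 on the vertical axis and near 0 on the horizontal axis, and the labelled PRTN3 lies far to the right.

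Most of the 197 were genes whose A9 effect passed the test in MONO-MAC-6 and not in MOLM-13, which says nothing by itself of the effect in MOLM-13. MONO-MAC-6 had 773 called members, 344 raised and 429 lowered by A9, where the background over all fitted genes was 12.3% (6.35% raised, 5.91% lowered). MOLM-13 had 72, 40 raised and 32 lowered, where the background was 1.27% (0.753% raised, 0.515% lowered). Of the 87 with a higher difference, 71 rose in MONO-MAC-6 with no call in MOLM-13. Of the 110 with a lower difference, 88 fell in MONO-MAC-6 with no call in MOLM-13. A smaller group of 11 rose in MOLM-13 with no call in MONO-MAC-6, and 4 fell in MOLM-13 with no call in MONO-MAC-6. The others comprised 3 called in both lines in opposite directions and 2 called in both in the same direction, to different extents. A further 9 higher and 9 lower were called in neither line alone. Called in each line or not, the effects had opposite signs in 52 of the 87 and in 80 of the 110. Choosing genes by a large difference itself favours opposite signs, and the share over all members was not counted. These counts are therefore only a description, and most MOLM-13 effects among the 197 were not called.

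Without the median-ratio scaling, the test of the difference called 161 members, 76 of them among the 197, and 52.2% of the 161 were higher against 44.2% of the 197. All 197 kept their sign. Of the called genes named below, CD93, PRTN3, CCR2, FSCN1, TNFAIP3, RXRA, ZFP36, SAMHD1, IL6R, AHRR, TIPARP, FLNA, CYTH4, PCDHGC3, TXNIP and ANXA4 missed without scaling. So did SQLE, HSD17B7, DHCR7, GGPS1, STAR, ACSL3, MYLIP, PGD, GSR, SRXN1, HERPUD1, PSAT1, PSPH, SHMT2, ATF5, CDKN2D, ALDOC, CISH, SOCS2, OTULINL and KCTD17. In MONO-MAC-6 the unscaled TPM gave 663 called members, 58.7% of them raised against 44.5% with scaling, and in MOLM-13 69, 72.5% raised against 55.6%. Scaling moved the median difference over all members from 0.17 to −0.04. With each of the 12 samples left out in turn, the number of calls ranged from 74 to 290. It was 290 without MONO-MAC-6 DMSO sample 1 and 163 and 237 without DMSO samples 2 and 3 of that line. Without 1 of its A9 samples it was 74 to 121, and without 1 of the MOLM-13 samples 85 to 131. In every refit 71 of the 197 were called, 36 higher and 35 lower. A9 and DMSO samples did not overlap in 39% of the members in MONO-MAC-6 and in 16.8% in MOLM-13, so groups that stand apart, as given for single genes below, are common. For these genes, the number of these 12 refits in which the call held is given where it was under 12.

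**Figure D2:**
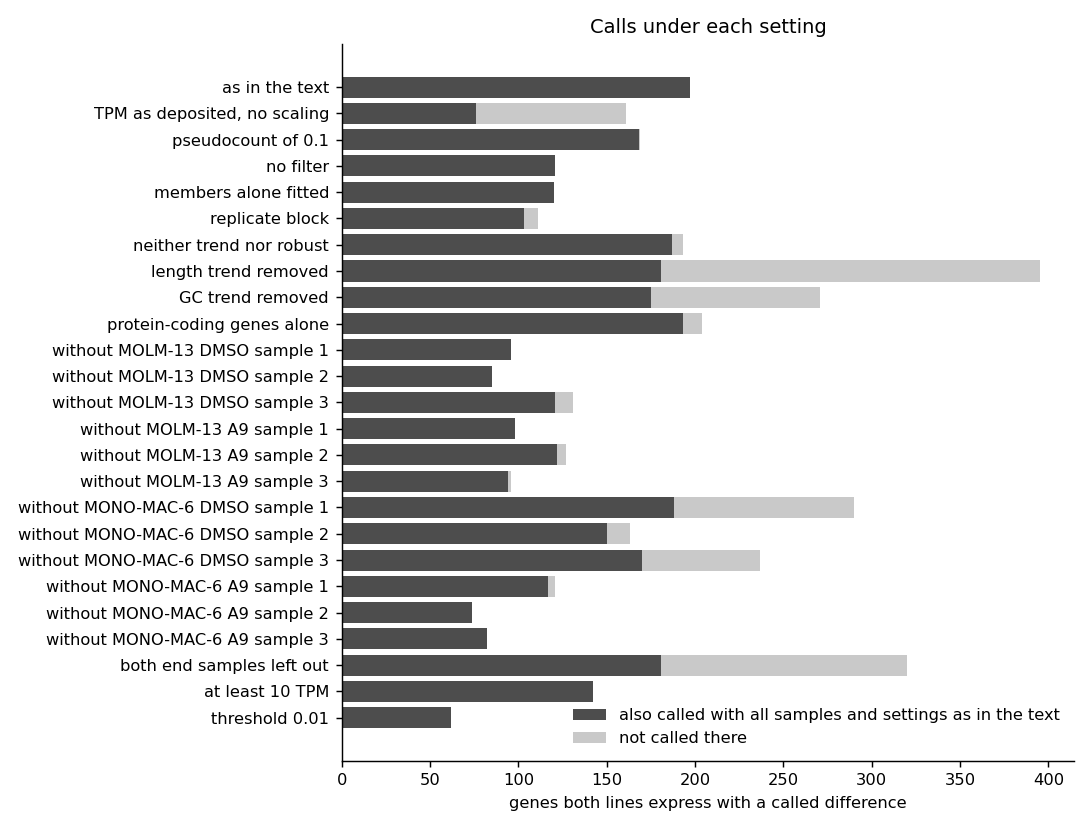
Number of members with a called difference under each processing setting drawn (horizontal axis, genes). The dark part of each bar is the members that are also among the 197 of the text. Averaging by the second number and taking each library as a sample, which gave far more calls, are not drawn. Leaving out 1 sample moves the total between 74 and 290, and the dark part never exceeds 197.

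The degrader's own targets did not pass the test. IKBKB stood at 48.8, 44.6 and 38.7 scaled TPM in DMSO samples 1, 2 and 3 of MOLM-13 and at 39.6, 44.7 and 30.6 with A9. In MONO-MAC-6 it stood at 22.4, 29.1 and 32.95 with DMSO and at 36.99, 35.03 and 36.3 with A9. The A9 values lay above all DMSO values in MONO-MAC-6 and overlapped them in MOLM-13, and the difference was 0.57 (SE 0.22, adjusted p = 0.203). CHUK was nearly level, at 22.7, 21.5 and 21.6 with DMSO and 22.6, 21.8 and 21.2 with A9 in MOLM-13, and at 21.98, 27.2 and 24.6 with DMSO and 27.04, 24.6 and 26.2 with A9 in MONO-MAC-6 (difference 0.08, adjusted p = 0.645). IKBKG, the scaffold subunit of the kinase complex, had a difference of −0.47 (adjusted p = 0.323). NR4A1 fell short of membership: it stood at 3.797, 3.203 and 4.12 scaled TPM with DMSO in MOLM-13 and at 4.55, 4.71 and 4.99 in MONO-MAC-6, and its difference was 0.17 (adjusted p = 0.539). A degrader acts on protein, so these transcript levels do not check whether the targets were removed.

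Among the other NF-kB genes, calls were in the higher direction. None of the 17 kinases and adaptors was called for the difference, although 3 had an unadjusted p under 0.05, as had 1295 of the 7993 members, and their median of 0.07 may be set beside −0.04 over all members. TRAF3, an adaptor that restrains the NF-kB-inducing kinase, had a difference of 0.50 (adjusted p = 0.109). The tumour necrosis factor receptor gene TNFRSF1B rose in MONO-MAC-6 (0.42), where its difference of 0.19 was not called. Of the 10 subunits and inhibitors 1 was called higher, TNFAIP3, which is on the target list as well. Of the 12 target genes 3 were called higher, TNFAIP3, SQSTM1 and CD83. None was called lower in either list. The targets' median difference was 0.38, and 0.60 without scaling.

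TNFAIP3 encodes A20, the ubiquitin-editing enzyme that dampens NF-kB and is itself an NF-kB target (ENSG00000118503, chromosome 6, 137867188 to 137883312, plus strand in GENCODE 29 on GRCh38). A stretch just upstream of its RefSeq start is shown because it holds matches to the kB motif (GGGNN followed by TTTCC), read here on the other strand and given in capitals (plus strand, GRCh38.p14, chr6:137867188-137867217, from RefSeq).
TNFAIP3: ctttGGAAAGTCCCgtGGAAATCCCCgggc
In MOLM-13, TNFAIP3 stood at 7.84, 6.64 and 5.79 scaled TPM with DMSO and 4.38, 4.87 and 3.88 with A9, and in MONO-MAC-6 at 17.2, 23.9 and 24.4 with DMSO and 30.8, 31.6 and 30.6 with A9. All A9 samples lay below all DMSO samples in MOLM-13 and above them in MONO-MAC-6. The effect was −0.53 in MOLM-13 (adjusted p = 0.13) and 0.50 in MONO-MAC-6 (adjusted p = 0.0396), a difference of 1.03 (SE 0.20, adjusted p = 0.0163). Without MONO-MAC-6 A9 sample 2 the adjusted p was 0.0531, and without scaling it was 0.09. Letters matching the kB motif on either strand occurred in the 250 bases upstream of 2 of the 11 target genes with a RefSeq promoter (NFKBIA and TNFAIP3, 18.2%), in 1 of the 58 called higher and 4 of the 81 called lower, and in 1.73% of all 27305 promoters. A match is a description of the letters, not of a bound site.

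CD83, a surface marker of activated dendritic cells and B cells, was called in both lines in opposite directions. It stood at 4.697, 5.02 and 5.38 scaled TPM with DMSO and 3.65, 3.67 and 3.43 with A9 in MOLM-13. In MONO-MAC-6 it stood at 11.1, 11.2 and 10.8 with DMSO and 12.99, 15.3 and 13.2 with A9. The groups did not overlap in either line, and the effects of −0.40 and 0.30 gave a difference of 0.69 (SE 0.11, adjusted p = 0.00747). SQSTM1, the autophagy receptor p62, rose in MONO-MAC-6 by 0.93 and had a difference of 0.72 (adjusted p = 0.03), a call that held in 4 of the 12 refits with 1 sample left out (highest adjusted p 0.0895). RXRA, the nuclear receptor that NR4A1 can pair with and the list's only member, had a difference of 0.48 (adjusted p = 0.0365), held in 3 of 12 refits (highest 0.108). Letters of the NR4A1 response element, AAAGGTCA, occurred upstream of none of the 58 called higher and none of the 81 called lower genes, and in 1.05% of all promoters.

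The cholesterol pathway held more calls than any other list. Of its 25 members 9 were called lower in MONO-MAC-6 and none higher, 24 had a difference below 0, and the median was −0.52. In MONO-MAC-6 19 of the 25 fell with A9 and none rose, with a median effect of −0.59, while in MOLM-13 none passed the test in either direction and the median was 0.01. The median difference was −0.32 without scaling, −0.52 with the trend on transcript length removed and −0.52 without MONO-MAC-6 DMSO sample 1, and the calls lower were 6, 14 and 13.

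INSIG1 had the lowest p of the pathway. Its protein holds the SREBP escort SCAP in the endoplasmic reticulum, and the gene is itself an SREBP target (ENSG00000186480, chromosome 7, 155297776 to 155310235, plus strand). The bases upstream of its RefSeq start are printed because they hold TCACGTGA, in capitals, an E-box of the kind bound by TFEB and USF factors (plus strand, GRCh38.p14, chr7:155297811-155297840, from RefSeq).
INSIG1: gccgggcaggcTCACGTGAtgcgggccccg
INSIG1 stood at 50.4, 50.3 and 48.7 scaled TPM with DMSO and 58.6, 55.01 and 55.8 with A9 in MOLM-13, and at 46.9, 47.7 and 48.6 with DMSO and 18.3, 17.1 and 17.6 with A9 in MONO-MAC-6. With DMSO the scaled levels were similar in the lines, although scaling within each line limits that comparison. The A9 and DMSO groups did not overlap in either line. The difference was −1.56 (SE 0.08, adjusted p = 1.22e-05). The sterol element TCACNCCAC was found upstream of 1 of the 20 pathway genes with a RefSeq promoter, SREBF2 (5%), and of 0.875% of all promoters, and TCACGTGA upstream of 1 of the 20 (INSIG1) and 0.89% of all.

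Enzymes from the start to the end of the pathway were among the called genes. ACAT2, which joins acetyl-CoA units at the first step, stood at 78.2, 85.4 and 88.5 scaled TPM with DMSO and 84.2, 80.3 and 95.1 with A9 in MOLM-13. It stood at 134, 91.4 and 92.3 with DMSO and 49.8, 48.97 and 52.5 with A9 in MONO-MAC-6, where the A9 samples lay below every DMSO sample (difference −1.07, SE 0.19, adjusted p = 0.0124). MSMO1, a sterol demethylating enzyme, stood at 7.54, 7.91 and 8.27 with DMSO and 9.23, 8.32 and 10.6 with A9 in MOLM-13 and at 29.5, 28.7 and 26.2 with DMSO and 13.2, 14.4 and 14.2 with A9 in MONO-MAC-6 (difference −1.18, SE 0.13, adjusted p = 0.00059). Both fell in MONO-MAC-6 and neither was called in MOLM-13. SQLE, the squalene epoxidase, had a difference of −0.88 (adjusted p = 0.00595). The calls of INSIG1, MSMO1, ACAT2 and SQLE held with any 1 sample left out. Those of the mevalonate kinase MVK (−1.06) and the decarboxylase MVD (−1.07) held in 6 of 12 refits, DHCR7 (−0.60) in 3 and HSD17B7 (−0.42) in 1, with adjusted p up to 0.109. The transcription factor gene SREBF2 had a difference of −0.22 (adjusted p = 0.39). STAR, which carries cholesterol into mitochondria and was picked out after its values were seen, stood at 10.6, 10.4 and 10.8 with DMSO and 10.9, 11.7 and 9.88 with A9 in MOLM-13 and at 38.02, 34.8 and 38.2 with DMSO and 19.1, 15.6 and 16.5 with A9 in MONO-MAC-6 (difference −1.10, adjusted p = 0.000824). ERG28 (−0.81) and GGPS1 (−0.55), also chosen that way, act in sterol and isoprenoid synthesis and held in 4 and 3 of 12 refits.

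**Figure D3:**
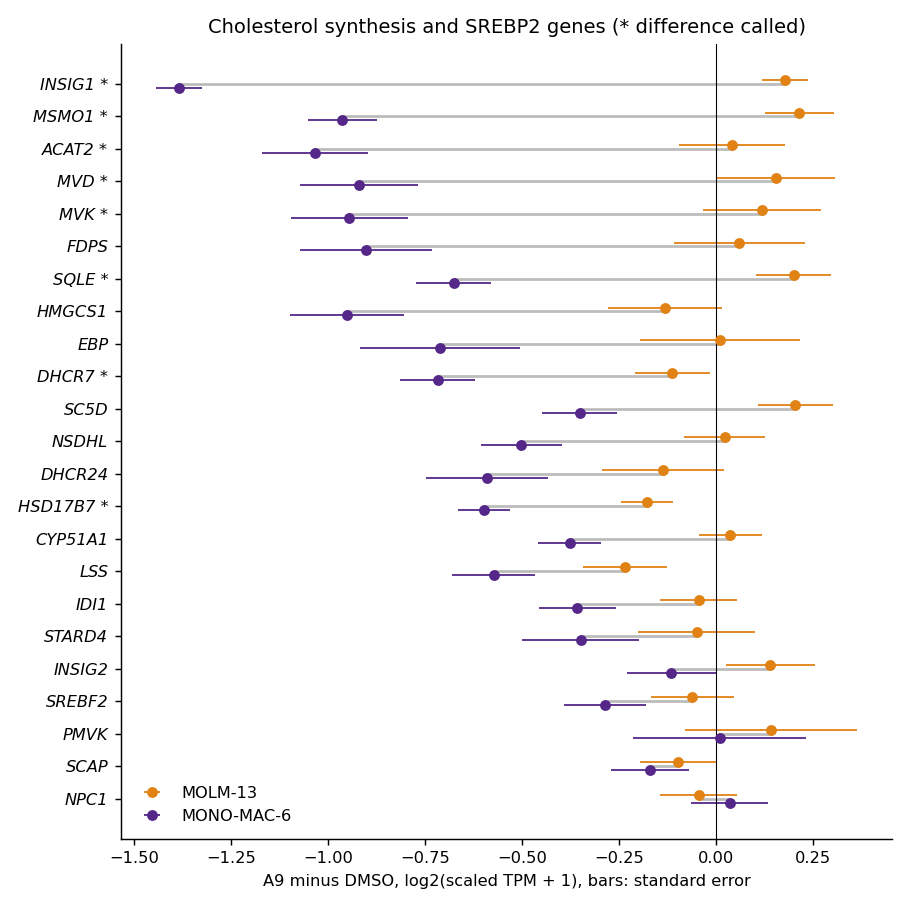
A9 effect (log2(scaled TPM + 1), with standard errors) of 23 of the 25 cholesterol and SREBP2 members in MOLM-13 and MONO-MAC-6, with an asterisk where the difference was called. The MOLM-13 points scatter around 0 while most MONO-MAC-6 points lie below it, INSIG1 lowest at −1.38.

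Fatty acid genes lay mostly on the lower side. Of 15 members 13 had a difference below 0 and 2 above, with a median of −0.30, and 2 were called lower and 1 higher. Without scaling 10 lay below 0 and 5 above, with a median of −0.07. In MONO-MAC-6 6 fell and 1 rose. SREBF1, whose product SREBP1 drives fatty acid synthesis, stood at 94.3, 88.2 and 97.8 scaled TPM with DMSO and 83.5, 92.6 and 80.2 with A9 in MOLM-13. In MONO-MAC-6 it stood at 59.1, 50.1 and 52.4 with DMSO and 23.9, 22.2 and 23.2 with A9, so that every A9 sample was below every DMSO sample (difference −1.06, SE 0.12, adjusted p = 0.000825). The acyl-CoA synthetases ACSL3 and ACSL1 parted: ACSL3 had a difference of −0.64 (adjusted p = 0.00698) and ACSL1 one of 1.58 (adjusted p = 0.00668). ACSL1 stood at 34.2, 30.8 and 27.2 with DMSO and 21.97, 23.9 and 17.2 with A9 in MOLM-13 and at 18.9, 28.6 and 31.1 with DMSO and 49.6, 58.9 and 53.7 with A9 in MONO-MAC-6, lower with A9 in each MOLM-13 sample than in any DMSO sample and higher in MONO-MAC-6. PLIN2, the coat protein of lipid droplets, stood at 8.36, 10.01 and 10.04 with DMSO and 9.01, 7.92 and 8.898 with A9 in MOLM-13 and at 51.5, 40.6 and 41.8 with DMSO and 84.2, 107 and 101 with A9 in MONO-MAC-6 (difference 1.23, adjusted p = 0.00312). It was the only 1 of the 8 LXR and PPARG target members called higher; SREBF1 and MYLIP, a ubiquitin ligase gene induced by LXR, were called lower. The MYLIP call (−0.47) held in 4 of 12 refits.

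Of 21 integrated stress response members 4 were called, all lower in MONO-MAC-6. The list as a whole was split, 11 below and 10 above 0, with a median of −0.10. Without scaling 1 was called lower and 1 higher, and the median was 0.12. These 4, PHGDH, PSAT1, PSPH and SHMT2, encode the 3 enzymes that make serine from a glycolytic intermediate and the mitochondrial enzyme that turns serine into glycine. PHGDH (ENSG00000092621, chromosome 1, 119648411 to 119744226, plus strand) stood at 242, 241 and 267 scaled TPM with DMSO and 236, 230.2 and 232 with A9 in MOLM-13. In MONO-MAC-6 it stood at 188, 143 and 149.5 with DMSO and at 77.1, 75.3 and 80.6 with A9, with no overlap of the groups (difference −0.92, SE 0.14, adjusted p = 0.00588). PSAT1 stood at 133, 132 and 134 with DMSO and 125, 111 and 121 with A9 in MOLM-13 and at 104, 115 and 109 with DMSO and 64.7, 62.03 and 62.6 with A9 in MONO-MAC-6 (difference −0.62, adjusted p = 0.00662). The groups of PSAT1 did not overlap in either line, and the MONO-MAC-6 effect of −0.78 was the one that passed the test. PSPH (−0.53) and SHMT2 (−0.51) held in 4 and 2 of 12 refits, with adjusted p up to 0.116.

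ATF4 itself had a difference of 0.30 (adjusted p = 0.21), and the stress factor DDIT3 one of −0.10 (adjusted p = 0.84). In MOLM-13 1 member of the list fell, DDIT4, an inhibitor of mTORC1 (−0.63, adjusted p = 0.032). In MONO-MAC-6 8 fell and 2 rose; the 2 were SLC7A11, the cystine transporter, and PPP1R15A. ATF5, a factor related to ATF4 and chosen after its values were seen, stood at 16.6, 15.8 and 17.1 scaled TPM with DMSO and 16.97, 17.7 and 16.7 with A9 in MOLM-13, and at 186, 216 and 201 with DMSO and 126, 122 and 122.8 with A9 in MONO-MAC-6 (difference −0.75, adjusted p = 0.00254). Also chosen that way, the phosphoenolpyruvate carboxykinase PCK2 (−0.73) and the argininosuccinate synthase ASS1 (−0.73) were called lower and each held in 3 of 12 refits. Among 20 unfolded protein response members only HERPUD1, part of the degradation machinery of the endoplasmic reticulum, was called (−0.44, held in 6 of 12 refits), against a list median of −0.25. XBP1, the factor spliced in that response, fell in MONO-MAC-6 (−1.02), with a difference of −0.51 that was not called (adjusted p = 0.15).

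Lysosomal genes carried calls in the other direction. Of 29 enzymes and membrane proteins 5 were called higher in MONO-MAC-6 and none lower, although the list's median was 0.06 (0.28 without scaling). A9 raised 11 of the 29 in MONO-MAC-6 and 1 in MOLM-13 (ARSA, which also rose in MONO-MAC-6), and lowered none in either line. CTSD, the aspartic protease cathepsin D (ENSG00000117984, chromosome 11, 1752752 to 1764573, minus strand), stood at 34.7, 39.4 and 45.8 scaled TPM with DMSO and 49.1, 51.8 and 58.6 with A9 in MOLM-13. In MONO-MAC-6 it rose from 206, 141 and 151 with DMSO to 525, 675 and 654 with A9. Groups were apart in both lines, and the difference was 1.496 (SE 0.23, adjusted p = 0.00537). PSAP, the precursor of the saposins that help break down sphingolipids, stood at 93.95, 103 and 105 with DMSO and 113, 112 and 117 with A9 in MOLM-13 and at 193, 166 and 169.9 with DMSO and 427, 514 and 479.9 with A9 in MONO-MAC-6 (difference 1.24, SE 0.13, adjusted p = 0.00059). GRN, progranulin, had a difference of 0.84 (adjusted p = 0.00631), and ASAH1, acid ceramidase, one of 0.64 (adjusted p = 0.00651). The call of HEXA (0.52), a hexosaminidase subunit, held in 7 of 12 refits. None of the 16 subunits of the V-ATPase, the pump that acidifies lysosomes, was called, none had an unadjusted p under 0.05, and their median was −0.16. TCACGTGA, the E-box shown for INSIG1, occurred upstream of 4 of the 19 lysosomal genes with a RefSeq promoter (21.1%), 2.15% of the 6511 members with one and 0.89% of all promoters.

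IFI30, a lysosomal thiol reductase that unfolds antigens for presentation (ENSG00000216490, chromosome 19, 18173162 to 18178117, plus strand), stood at 5.42, 6.4 and 7.91 scaled TPM with DMSO and 6.701, 6.803 and 7.11 with A9 in MOLM-13. In MONO-MAC-6 it rose from 47.6, 33.8 and 38.6 to 145, 174 and 175. The MOLM-13 groups overlapped and the MONO-MAC-6 groups did not (difference 1.95, SE 0.20, adjusted p = 0.000537). It was the only 1 of 6 MHC class II list members called. TYROBP, the signalling adaptor DAP12, stood at 29.2, 36.8 and 40.3 with DMSO and 39.95, 39.5 and 50.6 with A9 in MOLM-13. In MONO-MAC-6 it stood at 13.9, 8.49 and 8.39 with DMSO and 37.5, 52.8 and 46.3 with A9 (difference 1.78, SE 0.29, adjusted p = 0.00668). CD68, a glycoprotein of macrophage lysosomes, stood at 38.1, 38.5 and 35.97 with DMSO and 44.01, 48.3 and 45.1 with A9 in MOLM-13 and at 52.1, 55.4 and 57.2 with DMSO and 148, 169.6 and 169.7 with A9 in MONO-MAC-6 (difference 1.26, SE 0.11, adjusted p = 0.00016). For both genes every MONO-MAC-6 A9 sample exceeded every DMSO sample.

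MS4A6A, a membrane protein of monocytes and macrophages, was the single member that rose in both lines with a higher difference. Its levels were 28.1, 28.1 and 31.1 scaled TPM with DMSO and 56.1, 51.7 and 60.05 with A9 in MOLM-13, and 5.15, 5.51 and 5.201 with DMSO and 26.3, 28.9 and 23.7 with A9 in MONO-MAC-6. The rise was 0.92 in MOLM-13 (adjusted p = 0.00071) and 2.12 in MONO-MAC-6 (adjusted p = 4.25e-07), a difference of 1.198 (SE 0.12, adjusted p = 0.000494). MS4A7, of the same family, rose in MONO-MAC-6 with no call in MOLM-13 (difference 1.14, adjusted p = 0.00264). In all, 4 of the 10 monocyte and macrophage members were called higher and none lower, while the list's median was −0.18 (0.04 without scaling) and 6 of the 10 lay below 0. At an unadjusted p under 0.05, 4 were higher and 4 lower. The members on the other side were not called: S100A8 and S100A9, the subunits of calprotectin, had differences of −1.09 (SE 0.37, adjusted p = 0.144) and −1.17 (SE 0.35, adjusted p = 0.106). S100A8 rose in MOLM-13 by 1.92, and stood at 3406, 1637 and 1657 scaled TPM with DMSO and 3394, 3845 and 4002 with A9 in MONO-MAC-6 (effect 0.83, adjusted p = 0.0632). DMSO sample 1 was the highest of its group for S100A8.

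**Figure D4:**
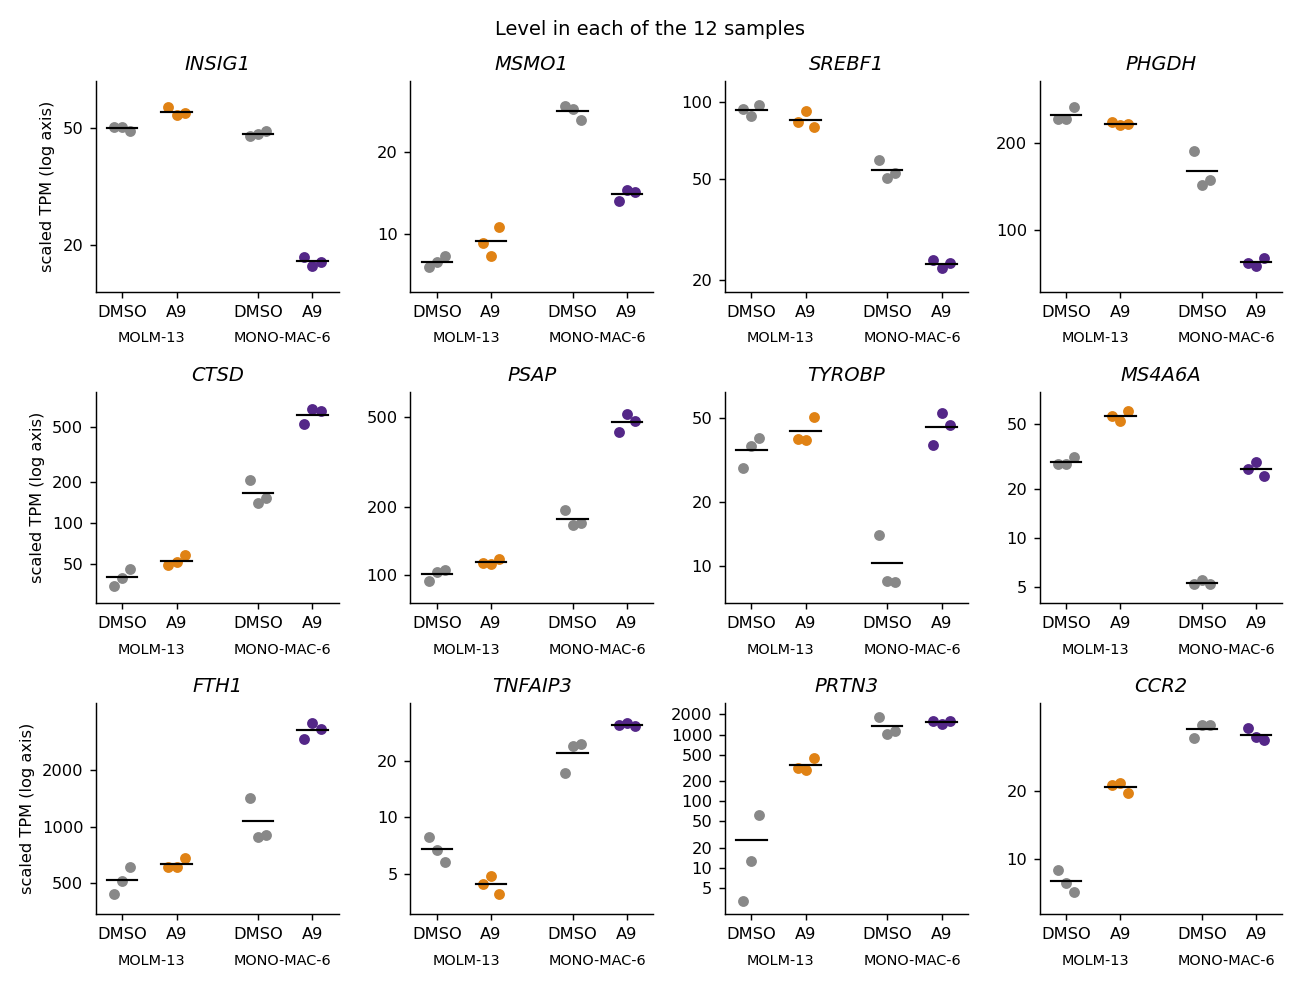
Scaled TPM (log axis) in each of the 12 samples for selected members, MOLM-13 at left and MONO-MAC-6 at right in each panel, DMSO and A9 apart, 1 point a sample. PSAP and CTSD rise with A9 in MONO-MAC-6, INSIG1 falls there while its MOLM-13 samples lie between 48.7 and 58.6, and PRTN3 spreads widely among the MOLM-13 DMSO samples.

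NCF1C had the largest positive difference of the called members, and NCF1B and NCF1 were among the 5 largest. NCF1 encodes p47phox, the organiser of the phagocyte NADPH oxidase, and NCF1B and NCF1C are its near-identical pseudogene copies, so reads may have been shared among them and each value is uncertain. NCF1 stood at 15.8, 16.7 and 20.3 scaled TPM with DMSO and 11.2, 10.9 and 13.8 with A9 in MOLM-13 and at 174, 122 and 117 with DMSO and 284, 344 and 333 with A9 in MONO-MAC-6. A9 samples lay below the DMSO samples in MOLM-13 and above them in MONO-MAC-6 (difference 1.75, SE 0.23, adjusted p = 0.00216). NCF1B and NCF1C had differences of 1.93 and 2.09 (adjusted p = 0.00308 and 0.00108). Of the 6 oxidase members NCF1 alone was called, and the list's median was −0.10.

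Antioxidant genes gave calls in the higher direction. Of 20 NRF2 and pentose phosphate members 5 were called higher and none lower, with a median of 0.40, and in MONO-MAC-6 9 rose and 1, PRDX1, fell. Without scaling 2 were called higher and 1 lower, with a median of 0.62. GCLM, the modifier subunit of the enzyme that starts glutathione synthesis, rose in both lines (0.47 and 0.41, difference −0.06, adjusted p = 0.68).

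PGD encodes an NADPH-making enzyme of the pentose phosphate pathway. Its upstream bases are shown because they hold, on the other strand, the core of the antioxidant response element TGACNNNGC, in capitals (plus strand, GRCh38.p14, chr1:10398853-10398882, from RefSeq).
PGD: cctcgccgggGCAATGTCAtctaggtgctc
PGD stood at 127, 131 and 124 scaled TPM with DMSO and 144, 162 and 124 with A9 in MOLM-13, and at 116, 115 and 126 with DMSO and 187, 218 and 212 with A9 in MONO-MAC-6 (difference 0.62, SE 0.15, adjusted p = 0.0432). Groups overlapped in MOLM-13 and not in MONO-MAC-6. The core TGACNNNGC was present upstream of 5 of the 15 list genes with a RefSeq promoter (33.3%), 12 of the 58 called higher (20.7%), 6 of the 81 called lower (7.41%), 12.9% of members and 11% of all promoters. FTH1, the ferritin heavy chain, stood at 438, 517 and 614 with DMSO and 614, 612 and 684 with A9 in MOLM-13 and at 1423, 887 and 904 with DMSO and 2947, 3554 and 3315 with A9 in MONO-MAC-6 (difference 1.35, SE 0.27, adjusted p = 0.0211). FTH1 has processed pseudogenes that may take some of its reads. These calls moved with single samples: FTH1 held in 6 of 12 refits, PGD in 4, sulfiredoxin SRXN1 (0.53) in 3 and glutathione reductase GSR (0.42) in 2, with adjusted p up to 0.125.

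Granule genes gave calls in the lower direction. Of 13 primary granule members 3 were called lower in MONO-MAC-6 and none higher, 12 had a difference below 0, and the median was −0.72 (−0.49 without scaling, −0.45 without MONO-MAC-6 DMSO sample 1). In MOLM-13 3 of the 13 rose, PRTN3, RNASE3 and LYZ, and none fell, and in MONO-MAC-6 2 rose and 4 fell. PRTN3, proteinase 3, had the largest difference in size of all called members (ENSG00000196415, chromosome 19, 840960 to 848175, plus strand). It stood at 3.19, 12.8 and 61.3 scaled TPM with DMSO and 318, 298 and 446 with A9 in MOLM-13, and at 1859, 1033 and 1121 with DMSO and 1574, 1440 and 1573 with A9 in MONO-MAC-6. On the log2 scale the MOLM-13 DMSO samples differed from each other more than the A9 samples of either line did. The MONO-MAC-6 groups overlapped. Its difference of −4.27 (SE 1.03, adjusted p = 0.0481) passed in only 2 of the 12 refits (highest 0.117) and missed without scaling.

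RNASE3, the eosinophil cationic protein, had a steadier difference of −0.72 (adjusted p = 0.00909), called in all 12 refits, though its close relative RNASE2 may share reads with it. It stood at 39.5, 44.5 and 41.8 scaled TPM with DMSO and 56.5, 53.6 and 62.6 with A9 in MOLM-13 and at 81.3, 71.3 and 68.7 with DMSO and 60.7, 59.05 and 62.7 with A9 in MONO-MAC-6. The serine protease gene PRSS57 fell in MONO-MAC-6 (−1.19) with a difference of −1.37, held in 3 of 12 refits. CTSG, cathepsin G, fell there as well (−1.53), and its difference of −1.18 was not called (adjusted p = 0.064). Myeloperoxidase, MPO, had a difference of −0.78 (adjusted p = 0.1).

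CCR2, the monocyte receptor for the chemokine CCL2, passed the test in MOLM-13 and not in MONO-MAC-6 (ENSG00000121807, chromosome 3, 46353734 to 46360928, plus strand). It stood at 8.902, 7.81 and 7.12 scaled TPM with DMSO and 21.4, 21.9 and 19.6 with A9 in MOLM-13, a rise of 1.30 (adjusted p = 0.000513) with no overlap. In MONO-MAC-6 it stood at 34.4, 39.3 and 39.3 with DMSO and 38.4, 35.1 and 33.8 with A9, overlapping, and the difference was −1.37 (SE 0.13, adjusted p = 0.000309). Without scaling the adjusted p was 0.0509. MNDA, a nuclear antigen of myeloid differentiation chosen after its values were seen, stood at 10.1, 11.99 and 10.4 with DMSO and 21.8, 25.01 and 26.4 with A9 in MOLM-13 and at 233, 191 and 169 with DMSO and 222, 229 and 226 with A9 in MONO-MAC-6, where the level was already higher with DMSO (difference −0.90, adjusted p = 0.0148). MS4A3, a gene of granulocyte-monocyte progenitors (−0.80, held in 4 of 12 refits), NDFIP1, an adaptor of NEDD4-family ligases (−0.95), OTULINL (−0.66) and KCTD17 (−0.76), chosen likewise, rose in MOLM-13 with no call in MONO-MAC-6. The 4 that fell in MOLM-13 with no call in MONO-MAC-6 were named after their values were seen: ANXA4, CYTH4, PCDHGC3 and TXNIP. ANXA4, a calcium-dependent membrane-binding annexin, stood at 399, 439 and 436 with DMSO and 281, 279 and 277 with A9 in MOLM-13 and at 507, 544 and 562 with DMSO and 480.5, 505 and 509 with A9 in MONO-MAC-6 (difference 0.49, adjusted p = 0.0422, held in 2 of 12 refits). TXNIP, the thioredoxin-binding regulator of glucose uptake, had a difference of 0.57 (adjusted p = 0.0106), CYTH4 one of 0.72 and PCDHGC3, a protocadherin that shares exons with its cluster, one of 0.48; the last had an adjusted p of 0.0517 without MOLM-13 DMSO sample 2. The PCDHGC3 effect in MONO-MAC-6 was −0.21 (adjusted p = 0.0529), and its A9 samples lay below its DMSO samples there too.

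Some members were called in both lines. A9 raised 18 and lowered 14 in both, and 3 were called in opposite directions. These counts stand beside 72 members called in MOLM-13 (0.901% of all members) and 773 in MONO-MAC-6 (9.67%). LYZ, lysozyme, stood at 124, 139 and 130 scaled TPM with DMSO and 315, 318 and 364 with A9 in MOLM-13 and at 3969, 3524 and 3376 with DMSO and 7008, 7354 and 7285 with A9 in MONO-MAC-6. Its A9 samples lay above its DMSO samples in both lines, and the rises of 1.34 and 0.997 gave a difference of −0.34 (SE 0.15, adjusted p = 0.243). The neonatal Fc receptor gene FCGRT rose by 1.13 and 0.63, the transcription factor gene TFEC by 0.69 and 0.86, and GLIPR2 by 0.86 and 0.71. On the lowered side, the adaptor HSH2D fell, with effects of −1.03 and −1.45 (difference −0.41, adjusted p = 0.326), as did the ETS factor gene SPIB with −0.86 and −1.09, the DNA sensor IFI16 with −0.82 and −0.75, and NRG4 with −0.54 and −0.53 in MOLM-13 and MONO-MAC-6. None of these 8 was called for the difference, which is not a showing that the lines respond alike.

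FSCN1, the actin-bundling protein fascin, fell in both lines and further in MONO-MAC-6 (−0.52 and −1.07), with a difference of −0.55 (adjusted p = 0.0235) that held in 5 of 12 refits and missed without scaling (adjusted p = 0.234). Beside CD83, the members called in both lines in opposite directions were GAS6 and SDC2. GAS6, the ligand of the AXL, TYRO3 and MERTK receptors, stood at 78.7, 86.8 and 95.6 scaled TPM with DMSO and 136, 144 and 150.4 with A9 in MOLM-13, and at 83.03, 59.3 and 59.95 with DMSO and 51.1, 45.8 and 48.3 with A9 in MONO-MAC-6. SDC2, the heparan sulfate proteoglycan syndecan 2, stood at 119, 119 and 120.1 with DMSO and 82.1, 84.02 and 76.5 with A9 in MOLM-13 and at 72.5, 88.4 and 91.5 with DMSO and 107, 113 and 112 with A9 in MONO-MAC-6. Neither gene's groups overlapped in either line. The difference was −1.17 for GAS6 (SE 0.18, adjusted p = 0.0054) and 0.95 for SDC2 (SE 0.13, adjusted p = 0.00254).

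Signalling, death and cell cycle genes gave single calls. FOS, the AP-1 subunit, stood at 8.73, 8.57 and 9.14 scaled TPM with DMSO and 8.35, 8.102 and 8.89 with A9 in MOLM-13 and at 28.9, 33.1 and 27.6 with DMSO and 46.8, 51.04 and 50.4 with A9 in MONO-MAC-6, where it rose (difference 0.76, SE 0.11, adjusted p = 0.00405). Of the 10 AP-1 and early response members the other called was ZFP36, which destabilises cytokine mRNAs (0.78, held in 3 of 12 refits). BMF, a BH3-only protein that promotes apoptosis, stood at 5.99, 5.42 and 5.18 with DMSO and 3.87, 4.51 and 3.21 with A9 in MOLM-13 and at 5.15, 6.57 and 7.06 with DMSO and 10.7, 14.9 and 12.4 with A9 in MONO-MAC-6 (difference 1.34, SE 0.21, adjusted p = 0.0054). It was the only 1 of 17 BCL2 family members called, and the median of that list was −0.16. CDKN2D, a CDK4 and CDK6 inhibitor, was the only 1 of 15 CDK inhibitor and p53 target members called (−0.69, held in 4 of 12 refits). CDKN1A, p21, fell in MONO-MAC-6 (−0.68), with a difference of −0.35 that was not called (adjusted p = 0.24).

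SAMHD1, a dNTP hydrolase, rose in MONO-MAC-6 by 1.62 and was the only called member of the 14 interferon-stimulated genes (difference 1.10, SE 0.19, adjusted p = 0.0102). The list's median was 0.47, and 7 of the 14 were higher and 2 lower at an unadjusted p under 0.05. FLNA, the actin crosslinker filamin A, was called among 25 actin and adhesion genes (0.60, held in 5 of 12 refits), and the aldolase gene ALDOC among 19 glycolysis and hypoxia genes (−0.89, adjusted p = 0.00823, held in all 12).

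Several of the largest differences lay in genes on none of the 37 lists, as did 147 of the 197 calls. IGFBP2, an insulin-like growth factor binding protein, stood at 28.5, 33.6 and 37.3 scaled TPM with DMSO and 47.1, 46.8 and 64.5 with A9 in MOLM-13 and at 546, 288 and 275 with DMSO and 170.4, 149 and 163 with A9 in MONO-MAC-6. Groups were apart in both lines, in opposite directions, with DMSO sample 1 the highest in MONO-MAC-6. The difference was −1.77 (SE 0.34, adjusted p = 0.0161), and the adjusted p was 0.0529 without MONO-MAC-6 A9 sample 2. The cytolinker plectin, PLEC (1.69, adjusted p = 0.00374), the monocyte carboxylesterase CES1 (1.38, adjusted p = 0.00457) and the surface receptor CD93 (1.37, adjusted p = 0.0125) were higher in MONO-MAC-6 in all 12 refits, though CD93 missed without scaling (adjusted p = 0.0629). The water and glycerol channel AQP3 (−1.39, adjusted p = 0.000452), the G protein subunit GNA15 (−1.36, adjusted p = 0.00166), the matrix protein SPON2 (−1.24, adjusted p = 0.000797) and SPNS3 (−1.22, adjusted p = 0.0119) were lower in all 12. C12orf57 (−1.57) and the metallothionein MT1F (−1.39) held in 3 and 4 of 12 refits.

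A few further genes were picked out after their values were seen. THBD, thrombomodulin, stood at 11.1, 10.9 and 11.03 scaled TPM with DMSO and 13.8, 14.6 and 12.6 with A9 in MOLM-13 and at 8.42, 10.3 and 10.7 with DMSO and 29.4, 34.2 and 32.3 with A9 in MONO-MAC-6. The A9 effect was 0.29 in MOLM-13 (adjusted p = 0.273) and 1.61 in MONO-MAC-6 (difference 1.32, SE 0.14, adjusted p = 0.00048). IL6R, the interleukin 6 receptor, had a difference of 1.11 (adjusted p = 0.0054), and both held in all 12 refits. The aryl hydrocarbon receptor targets AHRR (1.13) and TIPARP (0.91) were called higher and held in 3 and 5 of 12 refits. CISH (−0.66) and SOCS2 (−0.49), feedback inhibitors of cytokine signalling induced by STAT5, were called lower and held in 7 and 3.

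No member was called in 16 of the 37 lists, which hold 416 different genes, 41 of them with an unadjusted p under 0.05. Cytosolic ribosomal proteins had a median difference of −0.57 with 77 of 78 members below 0, nuclear subunits of oxidative phosphorylation −0.47 with 60 of 63 below 0, and proteasome subunits −0.39 with 30 of 34 below 0. These lists moved with single samples and with transcript length. Without MONO-MAC-6 DMSO sample 1 and MOLM-13 A9 sample 3, the ends of the components given above, their medians were −0.12, −0.07 and −0.11, and with the length trend removed −0.38, −0.29 and −0.22. Across members the difference rose with transcript length (Spearman's rho 0.503 across 7993 genes, which share the same 12 samples and are not independent), and the median difference was −0.32 in the 1999 shortest and 0.20 in the 1998 longest. The part of transcript length in the difference of any single gene was not tested. The cholesterol median, by contrast, was −0.49 without those 2 samples.

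Other lists without a call described the leukaemia's core programme and the machinery a degrader uses. Of 15 HOXA and MEIS1 programme members 3 had an unadjusted p under 0.05, and the list's median was −0.06. Among the 3 were HOXA7 (difference −0.40, adjusted p = 0.0556) and MLLT3 (−0.54, adjusted p = 0.13). In MONO-MAC-6 3 of the 15 fell with A9, HOXA7 (−0.33, adjusted p = 0.0135) and MLLT3 (−0.54, adjusted p = 0.0179) among them, and in MOLM-13 none was called. Reads of MLLT3 may include those of its fusion with KMT2A. The 9 MYC network members had none under 0.05 unadjusted, and the 33 ribosome biogenesis members 2. Of the 39 DNA replication genes 3 fell in MONO-MAC-6 and of the 34 mitosis genes 4, where 5.37% of all members fell, with medians of the difference of −0.04 and −0.14. Among 20 ubiquitin ligase parts used by degraders, CRBN had a difference of 0.02 (adjusted p = 0.95) and VHL one of −0.48 (adjusted p = 0.084). The mRNAs encoded by mitochondrial DNA had a median of 0.02.

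**Figure D5:**
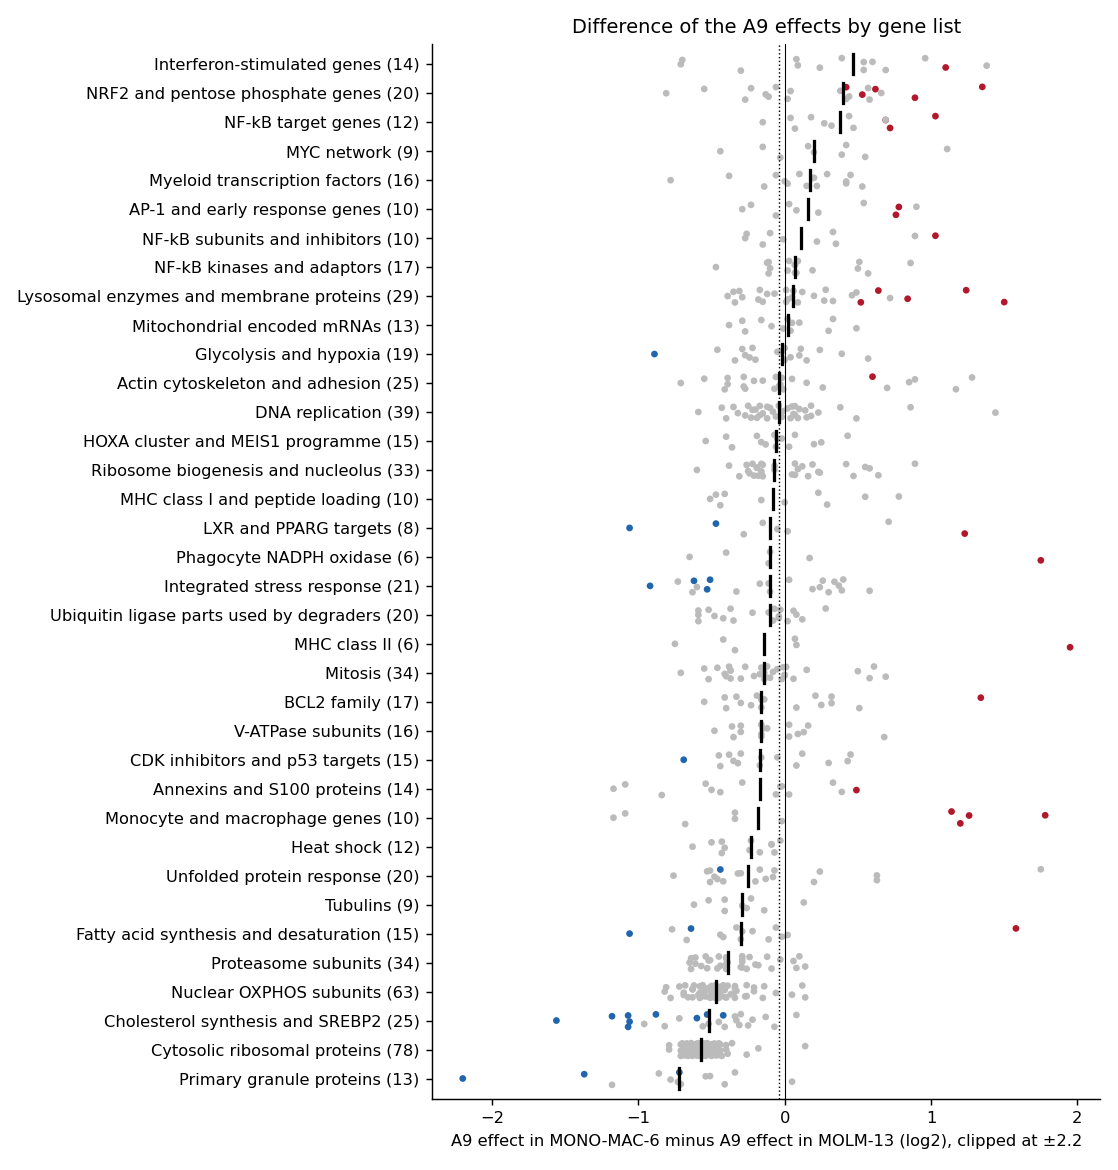
Difference of the A9 effects (log2, MONO-MAC-6 minus MOLM-13, clipped at ±2.2) for each member of the lists shown, 1 row a list of 6 or more members with their number, called members in colour, the list's median as a black bar and the median of all members as a dotted line. Cholesterol and granule genes lie mostly left of 0 with called members among them, and ribosomal protein genes lie left of 0 with none called.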

How the data were processed

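Poly(A) RNA of MOLM-13 and MONO-MAC-6 cells was sequenced as paired reads on an Illumina instrument, per the labels' protocols. The authors deposited 1 table per line with TPM values per Ensembl transcript, which are normalised to a fixed total in each library and keep no read depth. The submitters' processing notes name kallisto, limma and GRCh38; their versions, roles and the annotation are not given in the sources used here. Transcripts were joined to genes by identifier with GENCODE 29: 162526 of 207175 matched (78.45%), holding 89.8 to 91.4% of each library's TPM. Mitochondrial mRNAs held 4.85 to 9.47% and ribosomal protein mRNAs 17.0 to 30.6% of TPM.

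TPM was summed per gene, averaged over the 3 libraries of a sample and scaled by median-ratio factors within each line. A model over all 4 groups was fitted to log2(scaled TPM + 1) with limma 3.58.1 in R 4.3.3 (trend and robust options), on the 13408 genes whose mean reached 1 TPM in some group. Contrasts were A9 minus DMSO in each line and their difference, with Benjamini-Hochberg adjustment over all fitted genes and a threshold of 0.05. The script was tested on simulated data. Tables and figures used Python 3.11.15, pandas 2.3.3, SciPy 1.17.1 and matplotlib 3.10.9. Promoter sequences came from RefSeq (GRCh38.p14), matched by symbol for 6511 of the 7993 members, and motifs were searched on both strands of the 250 bases before each start. In GENCODE 29 the genes whose upstream bases are printed begin at or before those bases.

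The members, the 37 gene lists and the tests were chosen with earlier results of these data known. Named genes were the 12 highest and 12 lowest called differences, up to 5 raised and 5 lowered in both lines, up to 6 moved oppositely, up to 3 called members of each list (or, where none was called, those with the lowest p), and the targets of the degrader. Other called list members and the genes said in the text to be so were added after their values were seen. A few list members are counted but not reported here by name.

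Alternatives were other scalings, filters, pseudocounts, averaging, corrections for length and GC content, a replicate block, and leaving out samples.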

Additional observations from a re-analysis of the deposited data

Results flagged for a closer look

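The test of the difference itself marked 197 members whose A9 effect differed between MONO-MAC-6 and MOLM-13, and those of them named in the text are given here with that difference (log2, MONO-MAC-6 minus MOLM-13). Dose and line changed together, so neither can be told apart from the other for any of these genes.

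Higher in MONO-MAC-6, from the largest difference down, were NCF1C 2.09, IFI30 1.95, NCF1B 1.93, TYROBP 1.78, NCF1 1.75, PLEC 1.69, ACSL1 1.58, CTSD 1.496, CES1 1.38, CD93 1.37, FTH1 1.35, BMF 1.34, THBD 1.32 and CD68 1.26. Below these came PSAP 1.24, PLIN2 1.23, MS4A6A 1.198, MS4A7 1.14, AHRR 1.13, IL6R 1.11, SAMHD1 1.10, TNFAIP3 1.03, SDC2 0.95, TIPARP 0.91, GRN 0.84, ZFP36 0.78 and FOS 0.76. Then came SQSTM1 0.72, CYTH4 0.72, CD83 0.69, ASAH1 0.64, PGD 0.62, FLNA 0.60, TXNIP 0.57, SRXN1 0.53, HEXA 0.52, ANXA4 0.49, RXRA 0.48, PCDHGC3 0.48 and GSR 0.42.

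Lower in MONO-MAC-6, from the largest in size, were PRTN3 −4.27, IGFBP2 −1.77, C12orf57 −1.57, INSIG1 −1.56, MT1F −1.39, AQP3 −1.39, CCR2 −1.37, PRSS57 −1.37, GNA15 −1.36, SPON2 −1.24, SPNS3 −1.22, MSMO1 −1.18, GAS6 −1.17 and STAR −1.10. Smaller in size were MVD −1.07, ACAT2 −1.07, SREBF1 −1.06, MVK −1.06, NDFIP1 −0.95, PHGDH −0.92, MNDA −0.90, ALDOC −0.89, SQLE −0.88, ERG28 −0.81, MS4A3 −0.80, KCTD17 −0.76, ATF5 −0.75 and ASS1 −0.73. After these stood PCK2 −0.73, RNASE3 −0.72, CDKN2D −0.69, OTULINL −0.66, CISH −0.66, ACSL3 −0.64, PSAT1 −0.62, DHCR7 −0.60, FSCN1 −0.55, GGPS1 −0.55, PSPH −0.53, SHMT2 −0.51 and SOCS2 −0.49. Nearest to 0 were MYLIP −0.47, HERPUD1 −0.44 and HSD17B7 −0.42.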

How the results depend on the processing

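The difference kept its sign under every alternative in all 197 called members, while the counts moved. For the difference, MOLM-13 and MONO-MAC-6 in that order, called members numbered 197, 72 and 773. Leaving out 1 sample gave 74 to 290, 19 to 182 and 322 to 844. With the trend on transcript length removed they were 395, 160 and 1337, and without MONO-MAC-6 DMSO sample 1 and MOLM-13 A9 sample 3 (chosen after seeing the data) 320, 146 and 1145. At a threshold of 0.01 they were 62, 19 and 296. Fitting every gene listed above 0 gave 121, 42 and 548, and fitting the members alone 120, 50 and 640. Averaging by the second number gave 5574, 4306 and 5692, and taking each library as a sample 3750, 1264 and 4138; neither measures error by the spread between samples. Whether numbers shared across groups pair the samples was not tested. Deviations of same-numbered DMSO and A9 samples correlated at 0.545, −0.0334 and 0.802 in MOLM-13 and at −0.061, 0.199 and −0.234 in MONO-MAC-6. Differently numbered samples correlated at −0.802 to 0.796 in MOLM-13 and at −0.24 to 0.258 in MONO-MAC-6. With the first number as a replicate block the counts were 111 (103 of them among the 197), 19 and 546. Small differences that were not called changed sign: GLIPR2 to 0.07343 without scaling and 0.05252 without the 2 samples above, TFEC to −0.02173 with length removed and −0.02729 without the 2 samples, CHUK to −0.02669 and −0.008689 likewise, and NRG4 to −0.03984 with GC content removed. Leaving out 1 sample, IFI16 ranged from −0.02417 to 0.2572 and NRG4 from −0.04649 to 0.07913. The cause of these moves was not tested. Since TPM keeps no counts, the depth that limits low genes is unknown.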
